A study of Mus musculus with 8 samples.

Results

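The eicosanoid synthesis genes examined here were 10 genes of prostanoid and leukotriene production, found by their symbols in the count files: Ptgs1, Ptgs2, Ptges, Ptgis, Ptgds, Tbxas1, Alox5, Alox5ap, Alox15 and Ltc4s. All 10 were among the 21859 genes counted, and all 10 passed the filter on low counts that left 15077 genes for testing. Total RNA from whole aortas of 4 ApoE-/- mice, which lack apolipoprotein E and are prone to atherosclerosis, was compared with that of 4 wild-type (WT) mice. The animals of both genotypes were C57BL/6 males, were 40 weeks old and received a normal (chow) diet, and each library came from 1 mouse. The germline knockout is not restricted to any cell type, and a whole aorta holds smooth muscle, endothelium, adventitia, attached fat and, in lesions, leukocytes.

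Eicosanoids are lipid mediators made from arachidonic acid, which phospholipases A2 release from membranes. Cyclooxygenases, encoded by Ptgs1 and Ptgs2, convert arachidonic acid to prostaglandin H, from which terminal synthases make prostaglandin E (Ptges), prostacyclin (Ptgis), prostaglandin D (Ptgds) or thromboxane (Tbxas1). In a separate branch, 5-lipoxygenase (Alox5) and its activating protein (Alox5ap) start leukotriene synthesis, Ltc4s makes the cysteinyl leukotriene C and Alox15 oxygenates polyunsaturated fatty acids at another carbon. In arteries, prostacyclin from the vessel wall is known for relaxing smooth muscle and restraining platelets, thromboxane for the opposite actions, and leukotrienes as products of myeloid cells.

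Sequencing gave between 23240995 and 23940156 read pairs on genes in the ApoE-/- mice and between 18375898 and 21664598 in the WT mice. Apoe itself ranged from 14.7 to 36.3 CPM (read pairs relative to library size, scaled by the TMM factors of edgeR) with the knockout and from 536 to 857 CPM without it, a log2 fold change of -4.83 (edgeR adjusted p = 0.0141). The correlation of log2 CPM between libraries was 0.979 to 0.989 among WT mice and 0.849 to 0.971 among ApoE-/- mice. The ApoE-/- mouse of replicate 1 stood apart, with correlations of 0.849 to 0.903 to the others of its genotype, summed smooth muscle marker CPM of 5038 against 12590 to 20750 in the other ApoE-/- mice, and summed sympathetic neuron marker CPM of 3261 against at most 567 in the WT mice. Several results are therefore also given without it.

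No member passed the edgeR quasi-likelihood test at an adjusted p of 0.05 in either direction, where 70 of all 15077 genes, or 0.464%, did so. At an unadjusted p under 0.05 edgeR counted 3 members, Tbxas1, Alox5ap and Ptges, against 11.4% of all genes. In DESeq2, 2 of the 10 members, Tbxas1 and Alox5ap, had an adjusted p under 0.05 and both were higher in ApoE-/- aortas, while 4.81% of all genes were called in either direction. The ApoE-/- mice all lay above the WT mice in 3 members, again Tbxas1, Alox5ap and Ptges, beside 5.41% of all genes, and all below in 0 members, beside 3.3% of all genes. The median log2 fold change was 0.21 over the 10 members and 0.05 over all genes, and 6 members had a positive and 4 a negative value.

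**Figure D1:**
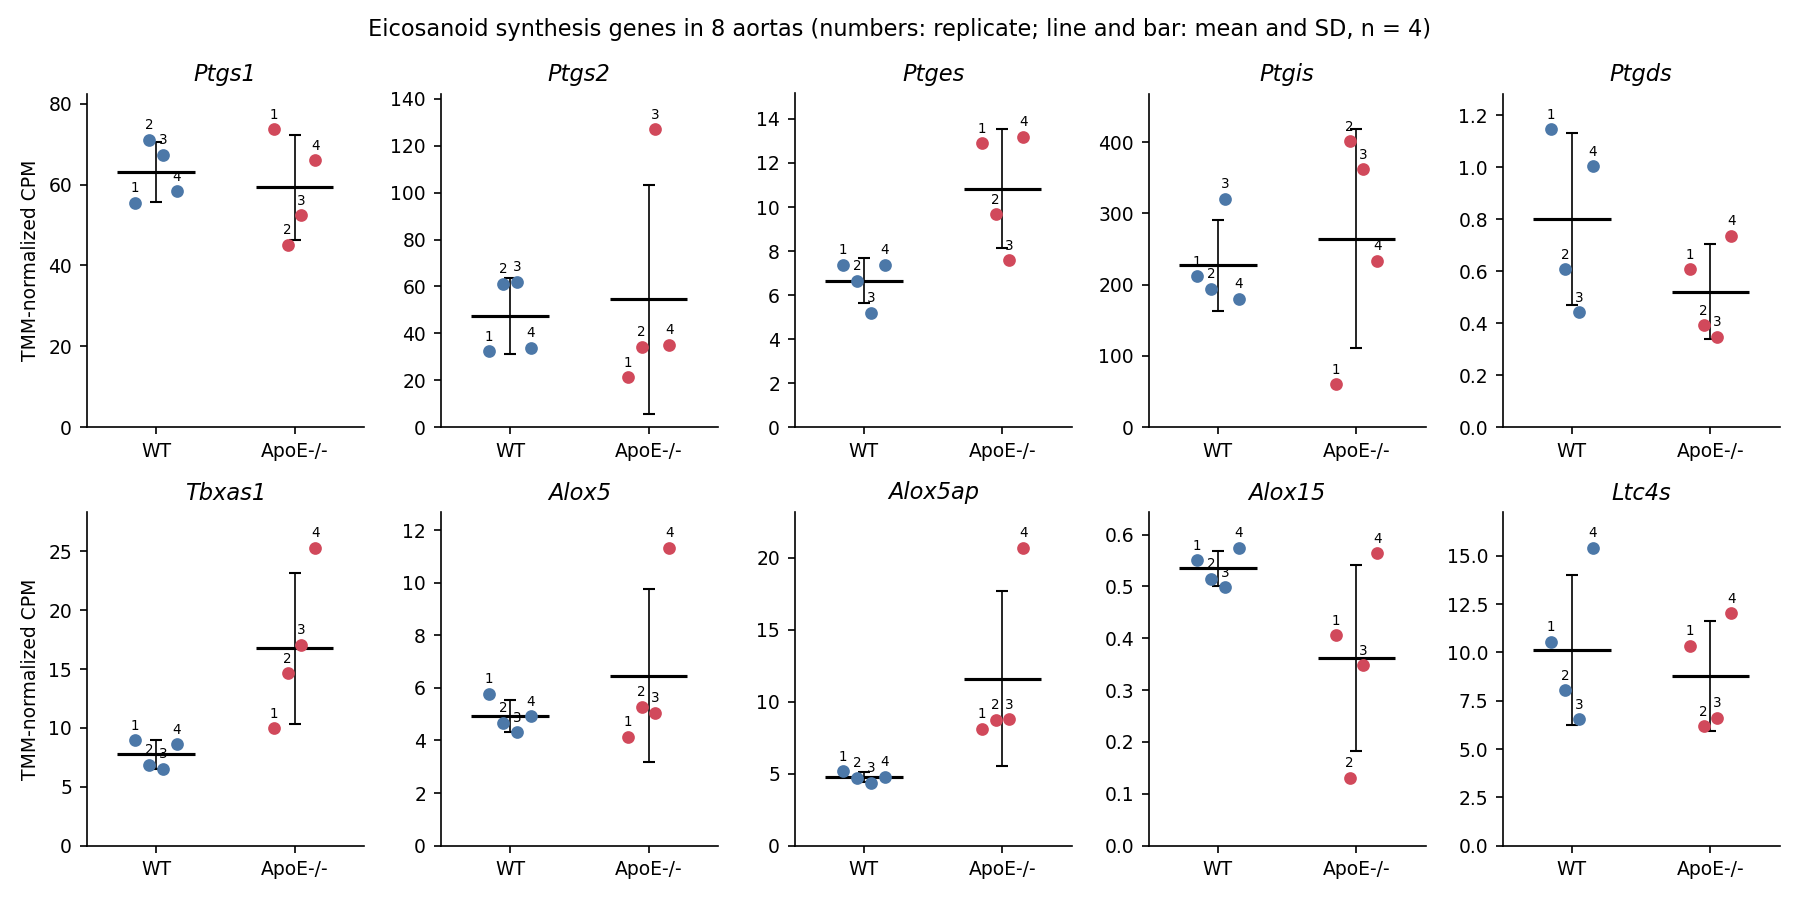
Normalized CPM of the 10 genes in each aorta; each point is 1 mouse, numbered by its replicate, and lines and bars give the mean and SD of 4 mice. ApoE-/- and WT points separate for Ptges, Tbxas1 and Alox5ap, whereas the points of the other 7 genes overlap.

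The terminal synthase genes Tbxas1 and Ptges carried 2 of the 3 separated patterns, and their RefSeq promoter sequences are shown because these are the members without overlap between genotypes that have a promoter entry. Each is the 250 bases before the RefSeq transcription start in GRCm38.p6, written 5′ to 3′ on the gene's strand. Tbxas1 is at chr6:38918736-38918985 on the plus strand and Ptges at chr2:30903298-30903547 on the minus strand. Both RefSeq starts lie inside the longer spans that GENCODE gives these genes, so other annotated starts have other upstream sequence. Capitals mark the motifs found.
Tbxas1: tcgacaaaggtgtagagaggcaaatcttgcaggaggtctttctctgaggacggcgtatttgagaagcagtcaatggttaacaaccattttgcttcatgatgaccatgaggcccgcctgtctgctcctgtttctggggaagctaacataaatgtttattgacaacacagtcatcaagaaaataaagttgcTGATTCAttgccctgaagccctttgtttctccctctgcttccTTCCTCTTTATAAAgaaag
Ptges: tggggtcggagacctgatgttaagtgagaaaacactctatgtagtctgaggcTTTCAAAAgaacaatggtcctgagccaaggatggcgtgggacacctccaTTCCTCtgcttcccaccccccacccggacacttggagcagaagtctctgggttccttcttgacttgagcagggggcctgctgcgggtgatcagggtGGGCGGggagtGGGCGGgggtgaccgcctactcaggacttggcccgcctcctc

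In the Tbxas1 sequence the capitals hold an AP-1 motif (TGANTCA) 61 to 55 bases before the start, then a PU.1 motif (GAGGAA, read on the opposite strand) at 19 to 14 bases. They also hold a TATA box (TATAAA) read on both strands, at 11 to 6 bases on the gene strand and at 13 to 8 on the opposite one, so that these matches overlap each other. In the Ptges sequence the capitals mark GC boxes (GGGCGG) at 53 to 48 and 42 to 37 bases before the start, a PU.1 motif at 149 to 144 bases and a C/EBP motif (TTNNGNAA) at 198 to 191 bases, the last pair on the opposite strand. Searched the same way on both strands, 6.75% of 32851 RefSeq promoters held the AP-1 motif, 23.3% the PU.1 motif, 12.4% the TATA box, 32.7% the GC box and 36.8% the C/EBP motif. Of the 7 members with a RefSeq promoter entry, 5 held the PU.1 motif: Ptgs1, Ptgs2, Ptges, Tbxas1 and Alox5. The GC box was present in Ptgs2, Ptges and Alox5, and the C/EBP motif in Ptgs2, Ptges and Ptgds. Ptgds also held an AP-1 motif and the NF-kB consensus, which 7.25% of promoters carried. None of the 8 motifs searched was found in the window of Ltc4s, nor was the CRE (TGACGT) or the E-box (CACGTG) in that of any member, motifs present in 6.47% and 6.02% of promoters. These matches describe letters in a window and no binding was measured.

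The levels of the 10 genes spanned a wide range when scaled to exon length. In WT aortas Ptgis was the most abundant, at 88.4 ± 24.9 CPM per kb (SD, n = 4). It was followed by Ptgs1 at 16.2 ± 1.90, Ptgs2 at 10.3 ± 3.57 and Ltc4s at 10 ± 3.83 CPM per kb. Alox5ap at 3.36 ± 0.234 and Ptges at 1.69 ± 0.261 CPM per kb came next, then Alox5 at 1.20 ± 0.151 and Tbxas1 at 0.852 ± 0.133, and the lowest were Ptgds at 0.486 ± 0.200 and Alox15 at 0.218 ± 0.0140 CPM per kb. Neighbours in this order overlapped between mice for Ptgs2 and Ltc4s and for Ptges and Alox5, and the other neighbouring genes did not overlap among the 4 WT mice. In ApoE-/- aortas the mean of Tbxas1, 1.84 ± 0.705 CPM per kb, lay above that of Alox5, 1.57 ± 0.801, but these ranges overlapped, from 1.10 to 2.78 and from 1.01 to 2.76 CPM per kb. The order depends on the length used, that of all annotated exons merged, which is 9094 bases for Tbxas1 and 1420 for Alox5ap. In CPM without this scaling, Tbxas1 (6.54 to 8.95) already lay wholly above Alox5 (4.32 to 5.78) in WT mice.

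**Figure D2:**
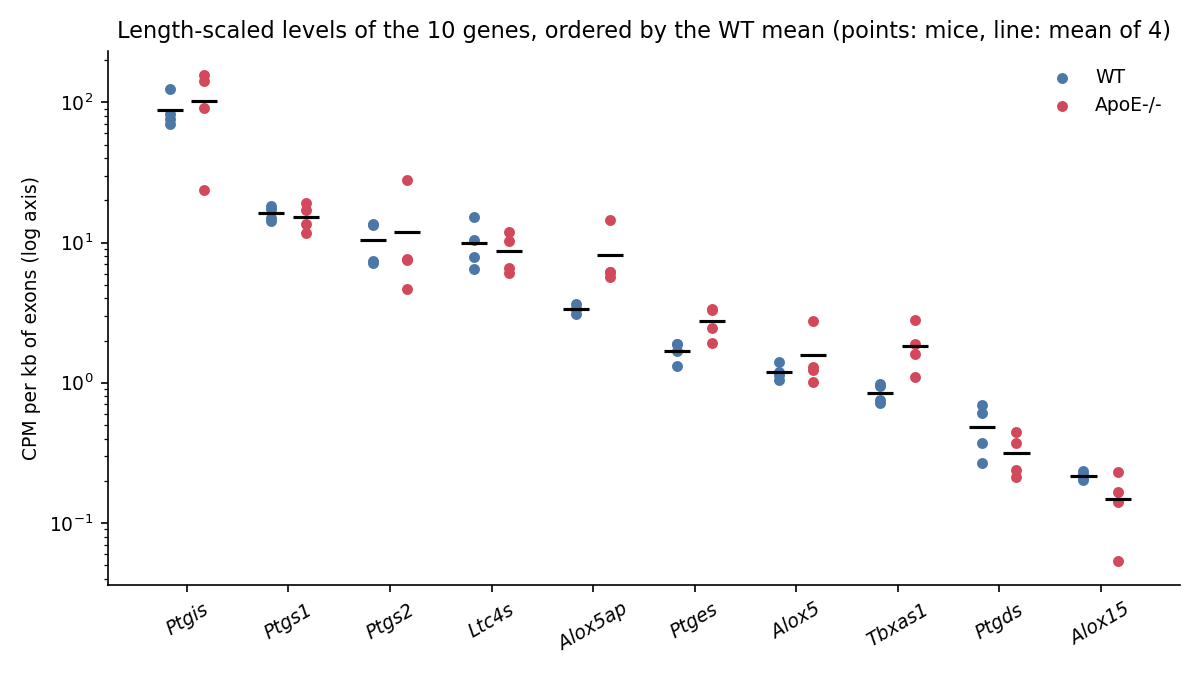
CPM per kb of annotated exons on a log axis, with genes ordered by their WT mean; points are mice and lines the means of 4. Ptgis is highest in WT at 88.4 CPM per kb and Alox15 lowest at 0.218, and the ApoE-/- points lie wholly above the WT points for Alox5ap, Ptges and Tbxas1.

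The cyclooxygenase genes come first in the prostanoid branch. Ptgs1, the constitutive enzyme (GRCm38 chr2:36230426-36252272, plus strand), measured 73.7, 45.1, 52.4 and 66.0 CPM in ApoE-/- replicates 1 to 4 and 55.6, 71.2, 67.4 and 58.3 CPM in WT replicates 1 to 4. The highest and the lowest mouse were both ApoE-/-, and the groups overlapped. The fitted change was -0.09 ± 0.17 on the log2 scale (SE, edgeR adjusted p = 0.903), and the 95% interval ran from -0.50 to 0.32.

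Ptgs2, the inducible cyclooxygenase (chr1:150100031-150108227, plus strand), measured 21.3, 34.3, 127 and 35.2 CPM in the ApoE-/- mice and 32.5, 61.1, 61.9 and 33.9 CPM in the WT mice. A single ApoE-/- mouse, replicate 3, lay above all others, replicate 1 lay below all WT mice, and replicates 2 and 4 lay near the lower WT values. The estimate of 0.20 ± 0.55 on the log2 scale (SE, edgeR adjusted p = 0.941) had an interval from -1.16 to 1.56, and it became -0.65 without ApoE-/- replicate 3. The balance of Ptgs2 to Ptgs1, taken as the log2 CPM difference within each mouse, averaged -0.45 ± 1.29 in ApoE-/- and -0.47 ± 0.35 in WT mice (SD, n = 4). The difference of 0.02 was small beside the spread (2-sided exact permutation test, p = 1, adjusted p = 1 over 3 such ratios), and leaving out 1 mouse moved it between -0.56 and 0.46.

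Among the terminal synthases, Tbxas1 encodes thromboxane A synthase, which makes the platelet activator and vasoconstrictor thromboxane A (chr6:38875404-39084585, plus strand). It measured 9.98, 14.6, 17.1 and 25.3 CPM in the ApoE-/- mice and 8.95, 6.88, 6.54 and 8.62 CPM in the WT mice. Every ApoE-/- mouse was above every WT mouse, replicate 1 being the nearest to the WT values. The mean was 16.7 ± 6.41 CPM in ApoE-/- and 7.75 ± 1.21 CPM in WT aortas (SD, n = 4). The fitted fold was 2.16, a log2 fold change of 1.11 with an SE of 0.28 and a 95% interval from 0.44 to 1.79 (edgeR adjusted p = 0.123, DESeq2 adjusted p = 0.00985). Without ApoE-/- replicate 1 the value was 1.29 and passed in edgeR too (adjusted p = 0.0187), and 593 of all genes then passed in place of 70. In DESeq2 fits that left out 1 mouse each, Tbxas1 passed in 5 of 8, with adjusted p from 8.49e-06 to 0.0755, and it did not pass without ApoE-/- replicate 3, WT replicate 2 or WT replicate 3.

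Ptges encodes the microsomal, inducible prostaglandin E synthase, which is coupled with Ptgs2 in inflamed tissue (chr2:30889471-30929863, minus strand). The ApoE-/- mice measured 12.9, 9.66, 7.58 and 13.2 CPM and the WT mice 7.39, 6.65, 5.21 and 7.37 CPM. The groups did not overlap, but the lowest ApoE-/- mouse was close to the highest WT mouse. The means were 10.8 ± 2.70 and 6.65 ± 1.02 CPM, and the estimate on the log2 scale was 0.70 ± 0.22 (SE, interval 0.18 to 1.23). It did not pass the test (edgeR adjusted p = 0.215, DESeq2 adjusted p = 0.0663), except in DESeq2 without ApoE-/- replicate 3. Across the 8 mice the r between Ptges and Ptgs2 was -0.58, and ApoE-/- replicate 3, the mouse with the highest Ptgs2, had the lowest Ptges of its genotype. This r is a description over 8 aortas of both genotypes.

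Ptgis, the prostacyclin synthase of the vessel wall (chr2:167191805-167240604, minus strand), measured 60.4, 402, 362 and 234 CPM in the ApoE-/- mice and 212, 194, 321 and 180 CPM in the WT mice. The ApoE-/- mice held both the lowest value, in replicate 1, and the highest values, in replicates 2 and 3. The estimate on the log2 scale was 0.22 ± 0.51 (SE, edgeR adjusted p = 0.928) with an interval from -1.02 to 1.46, and it ranged from -0.05 to 0.55 as 1 mouse at a time was left out. Ptgds, which makes prostaglandin D (chr2:25466709-25470046, minus strand), had only 8 to 25 read pairs a mouse. It measured 0.609, 0.394, 0.348 and 0.738 CPM in the ApoE-/- and 1.15, 0.608, 0.443 and 1.01 CPM in the WT mice, which overlap, and edgeR put the change at -0.62 ± 0.39 on the log2 scale (SE, edgeR adjusted p = 0.664).

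The balance between terminal synthases was set out per mouse. The log2 CPM of Tbxas1 relative to Ptgis averaged -3.74 ± 1.02 in ApoE-/- and -4.83 ± 0.54 in WT mice, a difference of 1.09 (2-sided exact permutation test, p = 0.143, adjusted p = 0.429 over 3 ratios). The same measure for Ptges relative to Ptgis was -4.32 ± 1.54 and -5.05 ± 0.59, a difference of 0.73 (exact permutation p = 0.543, adjusted p = 0.814). With 4 against 4 mice the smallest p this test can give is 0.0286. Leaving out 1 mouse at a time gave differences of 0.71 to 1.44 for the former and of 0.03 to 1.14 for the latter. The value of 0.03 came without ApoE-/- replicate 1, the mouse with the lowest Ptgis.

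In the leukotriene branch, Alox5ap encodes the membrane protein FLAP, which presents arachidonic acid to 5-lipoxygenase (chr5:149264767-149288153, plus strand). The ApoE-/- mice measured 8.12, 8.75, 8.80 and 20.7 CPM and the WT mice 5.19, 4.73, 4.38 and 4.79 CPM. All ApoE-/- mice were above all WT mice, 3 of them close together and replicate 4 far above. The means were 11.6 ± 6.08 and 4.77 ± 0.332 CPM, and the fitted fold was 2.43, a log2 fold change of 1.28 with an SE of 0.32 and an interval from 0.50 to 2.06 (edgeR adjusted p = 0.126, DESeq2 adjusted p = 0.00900). Without ApoE-/- replicate 4 the log2 fold change fell to 0.84 in edgeR, and it was above 0 in every fit. In DESeq2 fits that left out 1 mouse each, Alox5ap passed in 5 of 8, with adjusted p from 5.37e-05 to 0.0607, and it did not pass without WT replicate 2, 3 or 4. An opposite-strand gene, Gm19719, is annotated across 189 bases of its exons, and 144 bases of Tbxas1 exons are shared with Gm42962 in the same way. The deposited counts are labelled as stranded, which would keep such genes apart.

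Alox5, the 5-lipoxygenase itself (chr6:116410077-116461178, minus strand), measured 4.14, 5.29, 5.05 and 11.3 CPM in the ApoE-/- and 5.78, 4.68, 4.32 and 4.93 CPM in the WT mice. Apart from ApoE-/- replicate 4 the mice of both genotypes lay in the same narrow band. The estimate on the log2 scale was 0.39 ± 0.32 (SE, edgeR adjusted p = 0.770) and became -0.03 without that mouse. The excess of Alox5ap over Alox5 in fold change was not tested as a difference between genes.

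Ltc4s, which conjugates leukotriene A with glutathione (chr11:50236461-50238616, minus strand), measured 10.3, 6.17, 6.62 and 12.02 CPM in the ApoE-/- and 10.6, 8.05, 6.54 and 15.4 CPM in the WT mice. The groups overlapped over most of their range, and edgeR put the change at -0.21 ± 0.32 on the log2 scale (SE, edgeR adjusted p = 0.876). Alox15 (chr11:70344152-70352031, minus strand) had 3 to 13 read pairs a mouse. It measured 0.406, 0.131, 0.348 and 0.564 CPM in the ApoE-/- and 0.551, 0.515, 0.499 and 0.574 CPM in the WT mice, and edgeR put the change at -0.55 ± 0.39 on the log2 scale (SE, edgeR adjusted p = 0.720). The lowest 3 values were ApoE-/- and the fourth ApoE-/- mouse lay within the WT range. Neither gene passed the test.

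Other genes of the pathway were taken as 60 listed genes, of which 49 were tested. By edgeR 0 of the 49 passed at an adjusted p of 0.05, and 9 did so at an unadjusted p under 0.05 (7 higher, 2 lower), where 0.464% and 11.4% of all genes did. DESeq2 called 6, of which 5 were higher and 1 was lower in ApoE-/- aortas, beside 4.81% of all genes. The ApoE-/- mice lay wholly above the WT mice in 6 of the 49 and wholly below in 1, beside 5.41% and 3.3% of all genes, and the median log2 fold change was 0.10 against 0.05 over all genes. Without ApoE-/- replicate 1, edgeR called 593 of all genes in place of 70. Of the pathway genes it then called 4: Hpgds (log2 fold change 1.46, adjusted p = 0.0107), Pla2g15 (0.88, adjusted p = 0.0238), Dpep2 (2.13, adjusted p = 0.0358) and Ptger4 (-0.51, adjusted p = 0.0385). DESeq2 without that mouse, a fit for which no count over all genes is given, still called these 4 and also Cyp4f18 (adjusted p = 0.0245) and Ptgir (adjusted p = 0.00390). It then also called Cyp2j9 lower (DESeq2 adjusted p = 0.00216, edgeR log2 fold change -1.01), a P450 gene named after its values were seen, which edgeR did not pass (adjusted p = 0.0563). Cyp2j9 measured 49.0 CPM in ApoE-/- replicate 1, 8.66 to 11.5 CPM in the rest of that genotype and 14.0 to 27.3 CPM in WT, and its log2 fold change with all mice was -0.06.

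Upstream, 1 of 12 tested phospholipase A2 genes was called by DESeq2. Pla2g15, a lysosomal phospholipase, measured 31.7, 40.1, 46.5 and 57.4 CPM in the ApoE-/- and 29.8, 24.4, 22.2 and 27.9 CPM in the WT mice, and edgeR put the change at 0.75 ± 0.19 on the log2 scale (SE, edgeR adjusted p = 0.127, DESeq2 adjusted p = 0.0171). Pla2g4a, the cytosolic enzyme that releases arachidonic acid, averaged 56.5 CPM in ApoE-/- and 56.7 CPM in WT aortas, but ApoE-/- replicate 1 was at 20.9 CPM and the other ApoE-/- mice at 60.8 to 75.0 CPM. Leaving that mouse out gave 0.27 ± 0.21 on the log2 scale (SE, edgeR adjusted p = 0.560). Pla2g4c, another cytosolic phospholipase, had an estimate of 0.90 ± 0.30 (SE) and did not pass (edgeR adjusted p = 0.262, DESeq2 adjusted p = 0.191).

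Of the 13 tested other synthesis genes, DESeq2 called Hpgds and Dpep2, both higher in ApoE-/- aortas. Hpgds, the hematopoietic prostaglandin D synthase, measured 9.62, 14.3, 23.7 and 24.6 CPM in the ApoE-/- and 8.31, 7.91, 7.42 and 6.61 CPM in the WT mice. All ApoE-/- mice were above all WT mice, and edgeR put the change at 1.25 ± 0.29 on the log2 scale (SE, edgeR adjusted p = 0.109, DESeq2 adjusted p = 0.00496). The other prostaglandin D synthase, Ptgds, had the opposite sign and did not pass. Dpep2, a dipeptidase that trims leukotriene D, rested on 2 to 34 read pairs a mouse under the more abundant of the 2 identifiers that carry its symbol, and averaged 1.09 against 0.274 CPM (log2 fold change 1.95 ± 0.44, SE, edgeR adjusted p = 0.0993, DESeq2 adjusted p = 0.0189). These 2 identifiers share 1585 bases of exons on the same strand, which stranded counts do not keep apart. Among 8 cytochrome P450 and epoxide hydrolase genes DESeq2 called Cyp4f18, a P450 of myeloid cells that acts on leukotriene B, at 2.63 against 1.18 CPM (log2 fold change 1.16 ± 0.26, SE, edgeR adjusted p = 0.0965, DESeq2 adjusted p = 0.00986). The abundant genes Dpep1 and Ephx2 and the P450 gene Cyp4f13 had log2 fold changes of -0.17, -0.09 and -0.17 and did not pass in either tool. None of the 6 tested genes of export, uptake and breakdown was called by either tool. The prostaglandin transporter Slco2a1 had an estimate of 0.62 ± 0.32 (SE) on the log2 scale (edgeR adjusted p = 0.554), and the prostaglandin reductase Ptgr1 and the leukotriene exporter Abcc1 were at 0.31 and 0.18.

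Among 10 tested receptor genes, DESeq2 called 1 higher and 1 lower. The prostacyclin receptor Ptgir measured 11.8, 13.3, 16.5 and 14.3 CPM in the ApoE-/- and 9.32, 9.97, 5.93 and 7.28 CPM in the WT mice, so that its groups did not overlap while those of its ligand's synthase Ptgis did. The estimate on the log2 scale was 0.78 ± 0.19 (SE, edgeR adjusted p = 0.124, DESeq2 adjusted p = 0.0148). The prostaglandin E receptor Ptger4 measured 23.3, 20.03, 19.7 and 21.3 CPM in the ApoE-/- and 30.2, 31.6, 25.9 and 28.6 CPM in the WT mice, all ApoE-/- mice being below all WT mice. On the log2 scale the difference of -0.46 ± 0.10 (SE) had an edgeR adjusted p of 0.0959 and a DESeq2 adjusted p of 0.000964. A second prostaglandin E receptor gene, Ptger3, measured 154 CPM in ApoE-/- replicate 1 against 32.5 to 41.4 CPM in the rest of its genotype, and WT values ran from 26.1 to 49.7 CPM. Its estimate was 0.63 on the log2 scale with that mouse and -0.23 without it, and neither passed.

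**Figure D3:**
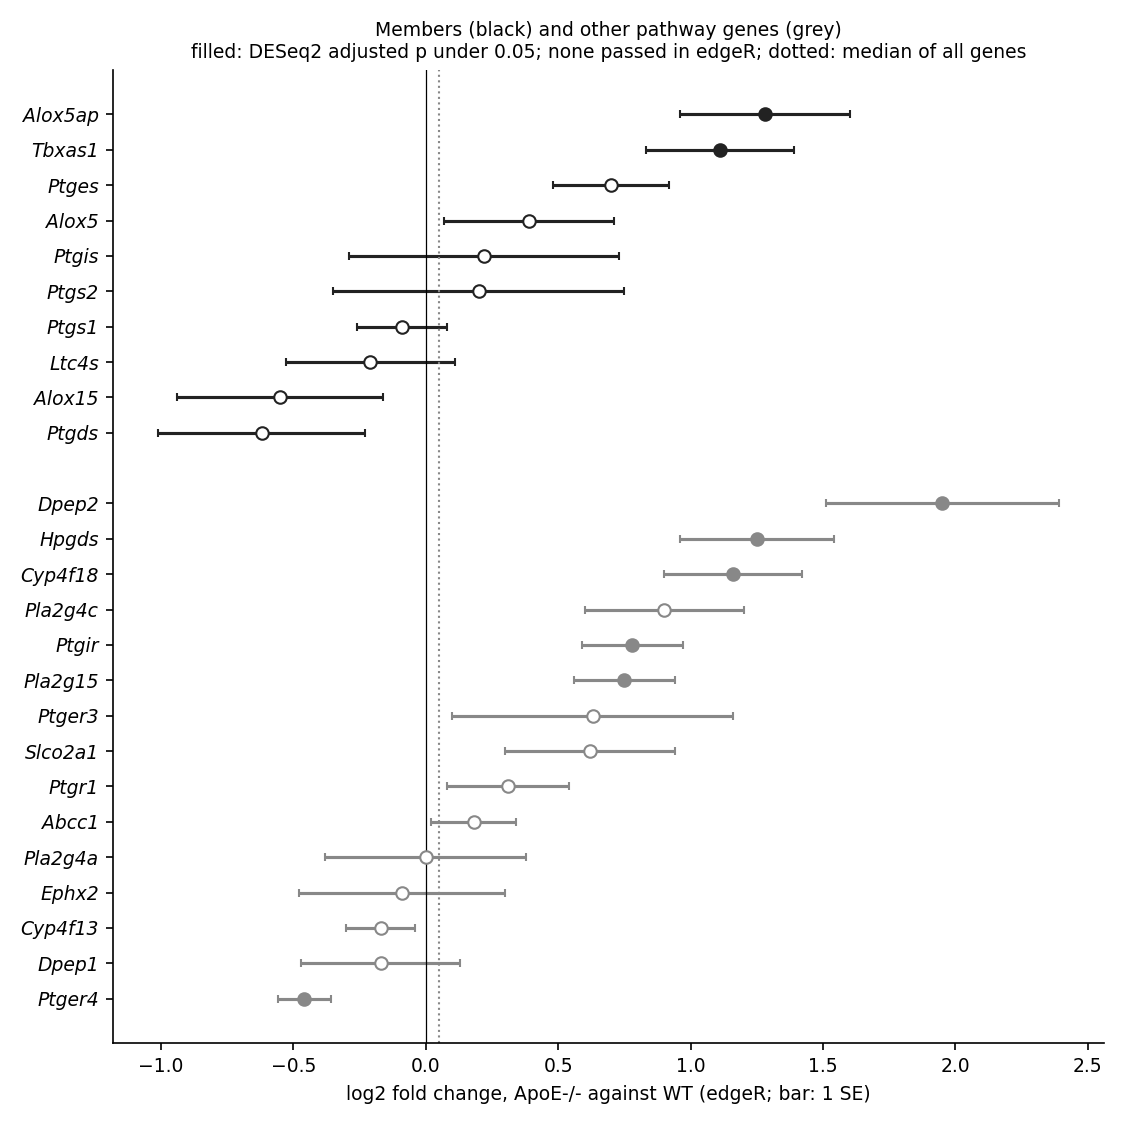
edgeR log2 fold changes of ApoE-/- against WT with 1 SE for the 10 members (black) and the named pathway genes (grey); filled points had a DESeq2 adjusted p under 0.05 and none passed in edgeR. Tbxas1 and Alox5ap are filled at 1.11 and 1.28, Hpgds lies beside them at 1.25, and Ptger4 is the filled point below 0, at -0.46.

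Markers of other cells moved along with several of these genes. In bulk tissue, fewer cells of a type and less RNA per cell cannot be told apart. The 12 macrophage markers were all higher on average in ApoE-/- aortas, 11 of them without overlap, and their summed level was 579.5, 1084, 1281 and 2365 CPM in the ApoE-/- mice against 458 to 547 CPM in the WT mice, the most abundant being Lyz2. The ranking of the 4 ApoE-/- mice in this sum was the same in Tbxas1 and in Alox5ap, with replicate 1 lowest and replicate 4 highest. Across the 8 mice the log2 level followed the log2 macrophage sum with r = 0.99 for Tbxas1, 0.94 for Alox5ap and 0.80 for Alox5, and without the 2 mice farthest from each gene's median r was 0.96, 0.83 and 0.38. Other leukocyte lists ran alongside. Alox5ap had r = 0.93 with the neutrophil and 0.91 with the serous cavity macrophage markers (0.76 and 0.88 without the 2 mice), and Tbxas1 had r = 0.92 with the latter (0.72 without 2). With the T cell markers r was 0.87 for Alox5ap and 0.82 for Tbxas1 (0.81 and 0.58 without the 2 mice). The serous cavity macrophage markers summed to 155 to 367 CPM in ApoE-/- and 85.1 to 104 CPM in WT mice. This list did not rise as a whole. Its most abundant gene, Gata6, averaged 63.2 CPM in ApoE-/- and 62.5 CPM in WT mice. Of the 5 genes, 4 were higher and 1 was lower on average, and 2 were higher without overlap. Alox5 followed the platelet markers with r = 0.90 and the mast cell markers with r = 0.78, which became 0.55 and 0.70 without the 2 mice. Ptges had r = 0.87 with the neutrophil, 0.86 with the T cell and 0.62 with the macrophage markers, and 0.64, 0.66 and 0.69 without the 2 mice. These mice share their genotype contrast, so each r is a description only.

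The members were also expressed per 1000 CPM of the macrophage markers. Lyz2 alone made up 509.5 of the mean sum of 1327 CPM in ApoE-/- mice and 98.2 of 498.7 CPM in WT mice. This gene therefore weighs heavily in the scale, which is not a level per macrophage. Tbxas1 measured 17.2, 13.5, 13.3 and 10.7 on this scale in the ApoE-/- mice and 16.4, 14.9, 14.3 and 16.4 in the WT mice. Alox5ap measured 14.0, 8.07, 6.87 and 8.75 in the ApoE-/- and 9.49, 10.2, 9.55 and 9.08 in the WT mice, and Ptges 22.3, 8.92, 5.92 and 5.58 against 13.5, 14.4, 11.4 and 14.0. In these 3 genes the genotypes overlapped only through ApoE-/- replicate 1, and the other ApoE-/- mice lay below every WT mouse. Hpgds overlapped with and without that mouse, at 10.4 to 18.5 in ApoE-/- and 12.5 to 17.1 in WT mice. Alox5 measured 7.14, 4.88, 3.94 and 4.79 in the ApoE-/- mice and 10.6, 10.1, 9.43 and 9.36 in the WT mice, and Alox15 lay at 0.121 to 0.700 against 1.01 to 1.11, both without overlap. On the same scale 43.9% of all tested genes lay wholly below WT in the ApoE-/- mice and 0.537% wholly above. Without ApoE-/- replicate 1, 91.4% of all tested genes lay wholly below WT, so these low positions were common ones. The part of macrophage content in the level of Tbxas1 or Alox5ap was not tested.

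**Figure D4:**
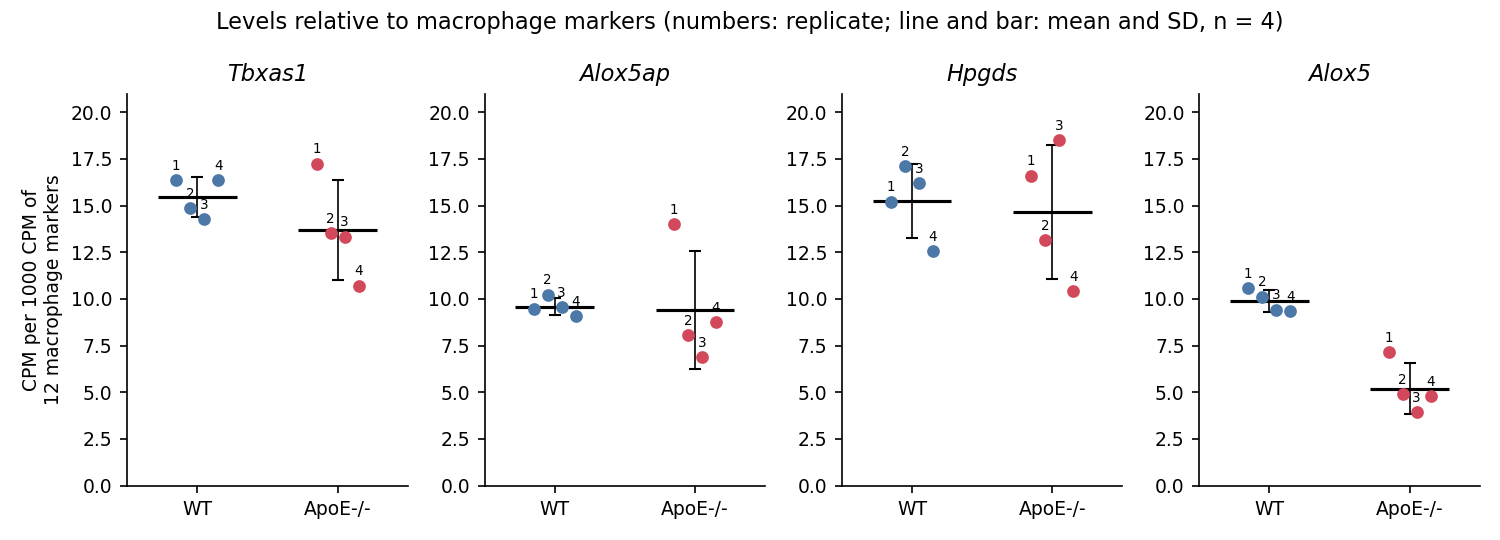
CPM of 4 genes per 1000 CPM of the 12 summed macrophage markers, with 1 point per mouse and the mean and SD of 4. Tbxas1 and Alox5ap overlap between genotypes only through ApoE-/- replicate 1, at 17.2 and 14.0, Hpgds overlaps without it too, and Alox5 runs from 3.94 to 7.14 in ApoE-/- and from 9.36 to 10.6 in WT mice.

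Platelets are also known for Tbxas1, and mast cells for Alox5 and Ltc4s. Tbxas1 had r = 0.54 with the platelet markers, and -0.11 without the 2 mice farthest from its median. The 7 platelet markers summed to 21.1 to 55.6 CPM in ApoE-/- and 20.9 to 31.8 CPM in WT mice, and the 9 mast cell markers to 36.2 to 103 and 38.7 to 76.8 CPM, so both lists overlapped between genotypes. The summed neutrophil markers, at 3.46 to 11.7 CPM against 1.97 to 2.63 CPM, did not overlap between genotypes. Neither did the summed T cell markers, at 8.22 to 13.4 against 5.10 to 7.66 CPM. Of the 10 neutrophil markers only 2 passed the filter on low counts, 1 higher and 1 lower, and S100a9 was the most abundant. All 7 tested T cell markers were higher on average, but 0 of them without overlap. The defining neutrophil genes Ly6g and Mpo never exceeded 3 read pairs. ApoE-/- replicate 4, the highest mouse in Tbxas1, Alox5ap and Alox5, was also the highest in the macrophage, mast cell and platelet sums.

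**Figure D5:**
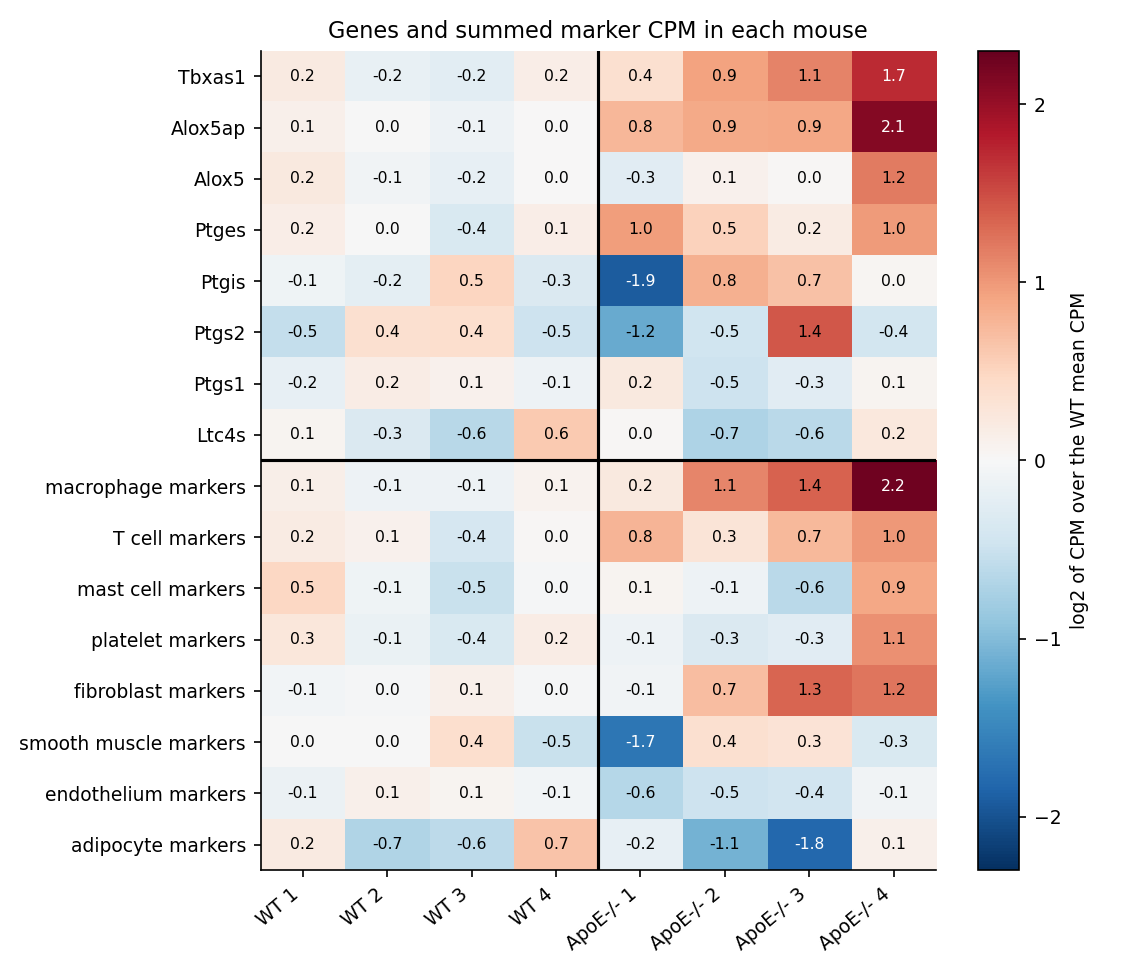
Log2 of CPM over the WT mean for 8 members and for the summed CPM of 8 marker lists, in each of the 8 mice. Macrophage markers, Tbxas1 and Alox5ap are highest in ApoE-/- replicate 4, and Ptgis and the smooth muscle markers are both lowest in ApoE-/- replicate 1.

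Other members followed other tissue components. Ptgis tracked the smooth muscle markers across the 8 mice (r = 0.96, and 0.80 without the 2 mice farthest from its median), and the mouse with the lowest Ptgis, ApoE-/- replicate 1, had the lowest smooth muscle sum. Ltc4s had r = 0.85 with the mesothelium markers, 0.69 with the platelet markers and 0.64 with the mast cell markers, and these became 0.72, 0.81 and 0.95 without the 2 mice farthest from its median. It also tracked the adipocyte markers (r = 0.89, and 0.83 without 2 mice), which summed to 1264 to 4817 CPM in ApoE-/- and 2728 to 6948 CPM in WT aortas. Ptgds, at 8 to 25 read pairs a mouse, had r = 0.90 with the adipocyte and 0.83 with the mesothelium markers (0.94 and 0.84 without 2 mice). Fibroblast markers summed to 4492 to 11930 CPM in ApoE-/- and 4509 to 5116 CPM in WT mice, with r = 0.89 to Tbxas1 and 0.78 to Alox5ap (0.71 for both without 2 mice). Endothelial markers summed to 1904 to 2812 CPM in ApoE-/- and 2730 to 3244 CPM in WT mice, and all 10 were lower on average in ApoE-/- mice, 5 of them without overlap and 5 called lower by DESeq2, with 0 called by edgeR and 6 at its unadjusted p under 0.05. Cardiac muscle markers lay wholly lower in ApoE-/- mice, at 138 to 328 CPM against 349 to 593 CPM, with r = -0.93 to Alox5ap and -0.82 to Tbxas1 (-0.70 and -0.48 without 2 mice). The part of these tissue components in the levels of the members was not tested.

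The 3 tested genes outside the members with the highest r of log2 CPM over the 8 mice were named for each member. For Tbxas1 they were Pla2g15 (r = 0.996), Fcgr3 (r = 0.995) and Lyz2 (r = 0.993), and for Alox5ap Ly86 (r = 0.992), Ms4a6c (r = 0.987) and Cd48 (r = 0.986). Ptgis was nearest to Ltbp4 (r = 0.995), Lamb2 (r = 0.993) and Atp10a (r = 0.993), and Ltc4s to Itih5 (r = 0.982), Plin2 (r = 0.964) and Fgf10 (r = 0.955). Ptges was nearest to Ccr2 (r = 0.968), Acsl5 (r = 0.967) and Dtx4 (r = 0.966), and Ptgs2 to Esr1 (r = 0.962), Gm5127 (r = 0.953) and Mtmr12 (r = 0.937). Ptgs1 was nearest to Sap30bp (r = 0.955), Fbxo28 (r = 0.944) and Olfr539 (r = 0.939), and Ptgds to Pim1 (r = 0.965), Fabp3 (r = 0.962) and Sucnr1 (r = 0.96). Alox5 was nearest to Dazap2 (r = 0.975), F13a1 (r = 0.972) and Rnf166 (r = 0.97), and Alox15 to Hrk (r = 0.949), Ntm (r = 0.933) and Lctl (r = 0.924). Without the 2 mice farthest from each member's median, r was 0.603 to 0.697 for Alox5, 0.607 to 0.707 for Alox15 and 0.799 or more for the others. Each r was picked as the highest over all tested genes in 8 aortas and is given as a description. Between members, Tbxas1 and Alox5ap had r = 0.94 over the 8 mice and 0.83 after the genotype means were removed, and Alox5 and Alox5ap had 0.79 and 0.98.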

How the data were processed

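Stranded, ribodepleted total RNA was sequenced in paired reads from 8 aortas, 1 library per mouse. What the authors deposited were unnormalized counts, the number of read pairs assigned to each gene. The submitters' processing notes name TopHat2, HTSeq, GRCm38 and mm10, with no versions. Totals for pairs without a gene (64.4% to 67.7% of pairs in ApoE-/- and 69.8% to 72.1% in WT mice) were left out of library sizes. Genes passing filterByExpr were fitted by genotype in R 4.3.3 with edgeR 4.0.16 (TMM factors, robust quasi-likelihood F test), adjusted by Benjamini-Hochberg over 15077 genes. DESeq2 1.42.0, the tool the study names, and limma 3.58.1 were alternatives. Log2 CPM used a prior count of 2. The scripts were tested on simulated data. Exon lengths came from GENCODE M21, where 21817 of 21859 identifiers matched, and promoters from RefSeq (GRCm38.p6), with entries for 7 members. Named genes were all members, pathway genes called by edgeR or DESeq2, and in each pathway list the most abundant gene and the 2 with the smallest edgeR p. The promoter of Ptges was added after its values were seen. The members and lists were chosen with earlier results of these data known.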

Additional observations from a re-analysis of the deposited data

Results flagged for a closer look

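Of 56 groups of 4 mice examined by Dixon's gap ratio (95% critical value), 5 held a mouse far from the others, where chance gives about 2.8. Ptgs2 in ApoE-/- mice had a ratio of 0.869, with replicate 3 at 127 CPM and the others at 21.3 to 35.2 CPM. Alox5ap in ApoE-/- mice had a ratio of 0.946, with replicate 4 at 20.7 CPM and the others at 8.12 to 8.80 CPM, and Alox5 in the same mice had a ratio of 0.840, with replicate 4 at 11.3 CPM and the others at 4.14 to 5.29 CPM. That mouse also had the highest macrophage marker sum, 2365 CPM. The receptor gene Ptger3 was set apart in both genotypes, with a ratio of 0.927 in ApoE-/- mice (replicate 1 at 154 CPM, the others at 32.5 to 41.4 CPM) and of 0.868 in WT mice (replicate 3 at 26.1 CPM, the others at 46.6 to 49.7 CPM).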

How the results depend on the processing

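Of the members, edgeR called 0 higher, DESeq2 2, and edgeR without ApoE-/- replicates 1 and 3 also 2. As 1 mouse at a time was left out the count was 0 to 1 in edgeR and 0 to 2 in DESeq2 (DESeq2 series chosen after seeing the data): 1 without WT replicate 4, 0 without WT replicate 2 or 3, and 2 in the other fits. No fit called a member lower. The count over all genes was 70 in edgeR, 725 in DESeq2, 29 in limma-voom, 822 in edgeR without ApoE-/- replicates 1 and 3, and 0 to 593 in edgeR as 1 mouse was left out. The other pathway genes called were 0 in edgeR, 6 in DESeq2, 2 in edgeR without ApoE-/- replicates 1 and 3, and 0 to 4 in edgeR as 1 mouse was left out. DESeq2 without ApoE-/- replicate 1 called 7, and no count over all genes is given for that fit. With the replicate number as a block, all genes called were 2 and the members called 0. Same-numbered mice deviated together with r of 0.06, -0.45, 0.32 and 0.16 for replicates 1 to 4. The labels state no pairing, and these values cannot settle whether the numbers stand for a shared batch.

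The log2 fold changes of Tbxas1 (0.84 to 1.37) and Alox5ap (0.83 to 1.63) stayed positive in every fit, the DESeq2 fits without 1 mouse included. Over the other fits, in which the remaining members have values, Ptges (0.59 to 0.84) stayed positive and Ptgds and Alox15 negative. As 1 mouse was left out, Ptgs1 ranged from -0.21 to 0.02, Ptgs2 from -0.65 to 0.48, Ptgis from -0.05 to 0.55, Alox5 from -0.03 to 0.55 and Ltc4s from -0.39 to 0.07. Ptgs2 turned to -0.09 in limma-voom, -0.09 with the replicate block, -0.65 without ApoE-/- replicate 3 and -0.45 without ApoE-/- replicates 1 and 3. Ptgis turned to -0.05 in limma-voom, -0.01 with the replicate block and -0.05 without ApoE-/- replicate 2. Ptgs1 turned to 0.02 without ApoE-/- replicate 2, Alox5 to -0.03 without ApoE-/- replicate 4, and Ltc4s to 0.07 without WT replicate 4. The Ptgs2 to Ptgs1 balance (-0.56 to 0.46) turned to -0.56 without ApoE-/- replicate 3 and to -0.08 without WT replicate 1 or 4, while Tbxas1 to Ptgis (0.71 to 1.44) and Ptges to Ptgis (0.03 to 1.14) kept their sign. The cause of these changes was not tested. With a minimum of 10 counts in every mouse Ptgds and Alox15 dropped out and have no value.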
